A study of Mus musculus with 18 samples.

Results

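The epidermal growth factor (EGF) family of mouse was followed through 9 genes: the ligand genes Ereg, Areg, Hbegf, Btc, Tgfa and Nrg1, and the receptor genes Egfr, Erbb2 and Erbb3. The members were chosen by gene symbol as a family, with their FPKM in the 6 groups already known, and Ereg stood among genes already seen to differ between the groups. Each symbol was held by 1 locus, so 9 of the 51499 assembled loci are described. RNA came from mouse embryonic fibroblasts, cells grown out of embryos, labelled either Ago2+/+ or Ago2-/- for the Argonaute gene Ago2, whose protein cuts RNA in RNA interference. Each genotype received the solvent DMSO, tunicamycin (3 µg/ml), which stops N-linked sugars from being added to proteins in the endoplasmic reticulum (ER), or 500 nM thapsigargin, which empties the ER of calcium. The exposure lasted 6 h in the study's methods, which call the controls untreated where the labels say DMSO.

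The experiment asked how AGO2 shapes mRNA levels when the ER is stressed. It comprised 18 libraries, 3 in each of the 6 groups. The lines came from other laboratories and were not authenticated, though the study states that the Ago2-/- cells were checked by western blot for lack of the protein. The sources used here give neither the deleted part of Ago2, nor the strain, nor whether a line is 1 clone, nor why the groups labelled Ago2+/+ carry the name DCR1 in titles and table. The labels conflict on genotype for 4 libraries, and each was placed by its title. By their titles these lie in all groups labelled Ago2+/+ and in Ago2-/- DMSO. The placement changed no level, because the groups were pooled by the authors. Levels are the authors' FPKM, a fragment count scaled by transcript length and by library, with 1 value per group pooled over its libraries. How the libraries were scaled is not given. There is therefore no replicate spread, no n and no test: every value is a description, the depth is unknown, and no order of groups or genes was set against an error. Differences are on the scale of log2(FPKM + 0.1), which understates the change of low genes. A locus is called past 2-fold where that difference is at least 1 in size and at least 1 of both groups reaches 1 FPKM.

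EGF-like ligands are made as membrane-bound precursors that metalloproteases of the ADAM family cut free. They bind receptor tyrosine kinases that work in pairs: EGFR binds most ligands, ERBB2 has no known ligand and serves as a partner, and ERBB3 binds neuregulins but has little kinase activity of its own. Active receptors feed the Ras-MAPK relay, which switches on early response genes and its own inhibitors, and fibroblasts use this pathway for growth and wound repair.

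The labels did not sort the groups. Ago2 stood at 5.61 FPKM in Ago2-/- DMSO and 5.75 in Ago2+/+ tunicamycin, against 15.5 to 22.1 in the other 4 groups, of which 2 are labelled knockout. The Y-linked gene Ddx3y was at 23.3 FPKM in Ago2+/+ thapsigargin and 24.7 in Ago2-/- tunicamycin and listed at 0 in the other 4. The locus that holds Xist was at 46.6 FPKM in Ago2+/+ DMSO and 33.5 in Ago2-/- thapsigargin and under 0.1 elsewhere. Together these marks set 3 pairs of groups side by side: Ago2-/- DMSO with Ago2+/+ tunicamycin, Ago2-/- tunicamycin with Ago2+/+ thapsigargin, and Ago2-/- thapsigargin with Ago2+/+ DMSO. Between the groups of such a pair 1.83%, 2.19% and 4.11% of loci lay past 2-fold, in that order. All directions below hold for the labels as deposited, so that differences between cultures, genotypes and treatments cannot be told apart. In bulk RNA, fewer cells that express a gene and less RNA per cell cannot be told apart either.

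Fibroblast markers were present in every group, with 8 or 9 of 12 at 1 FPKM or more and a summed level of 3032 to 3966 FPKM, but Thy1 was listed at 0 throughout, Lum did not exceed 0.0138 FPKM and Dcn did not exceed 1.06. Vim and the locus of S100a4, which holds 3 symbols, made up most of that sum except in Ago2+/+ thapsigargin and Ago2-/- tunicamycin. Other markers varied widely. Col1a1 ran from 5.97 to 651 FPKM, Col1a2 from 23.7 to 577 and Pdgfrb from 0.540 to 17.9, each highest in these 2 groups. Col3a1, Fn1 and Fbn1 were highest there as well, whereas Vim and the S100a4 locus were lowest there. Vim was at 1181 and 952 FPKM against 1290 to 2634 elsewhere, and the S100a4 locus at 285 and 330 against 937 to 1967. Most markers of other cells were low. Epcam and Cdh1 of epithelium stayed at or under 0.181 FPKM, Adgre1 of macrophages was listed at 0 while Cd68, the only 1 of 7 macrophage markers to reach 1 FPKM, was at 1.13 to 1.82, and the 6 endothelial markers summed to at most 0.530. The 5 smooth muscle markers summed to 2418 FPKM in Ago2+/+ thapsigargin and 1800.5 in Ago2-/- tunicamycin and to under 10 in the other 4 groups. Acta2, Tagln and Cnn1 made up nearly all of this, whereas Des was at 0.397 and 0.499 FPKM in these groups against 2.95 in Ago2+/+ DMSO and 2.58 in Ago2-/- thapsigargin, and Myh11 did not exceed 0.0730. The keratin gene Krt19 was highest in the same 2 groups, at 15.8 and 11.7 FPKM against at most 3.43. The keratin genes Krt14, Krt8 and Krt18 went another way, all under 1 FPKM. They were highest in Ago2-/- DMSO (0.673, 0.650 and 0.606) and Ago2+/+ tunicamycin (0.599, 0.457 and 0.384). In the groups with most Krt19 they did not exceed 0.0752, and Krt5 did not exceed 0.0348 in any group.

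Promoter sequence is shown for 3 members, because Areg and Btc lie on the same stretch of chromosome 5 and had their highest levels in the same groups, while Egfr is the receptor that these ligands bind and had its highest levels elsewhere. Each run is the 250 bases before the gene's start in RefSeq, build GRCm38.p6, on the strand of the gene: chr5:91139349-91139598 (plus) for Areg, chr5:91402995-91403244 (minus) for Btc and chr11:16751953-16752202 (plus) for Egfr. Capitals mark the letters of a motif that was found.
Areg: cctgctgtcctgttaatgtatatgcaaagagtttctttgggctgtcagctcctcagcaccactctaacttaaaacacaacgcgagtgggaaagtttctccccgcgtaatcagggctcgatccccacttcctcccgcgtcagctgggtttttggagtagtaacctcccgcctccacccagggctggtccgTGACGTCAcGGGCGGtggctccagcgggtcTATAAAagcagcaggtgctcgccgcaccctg
Btc: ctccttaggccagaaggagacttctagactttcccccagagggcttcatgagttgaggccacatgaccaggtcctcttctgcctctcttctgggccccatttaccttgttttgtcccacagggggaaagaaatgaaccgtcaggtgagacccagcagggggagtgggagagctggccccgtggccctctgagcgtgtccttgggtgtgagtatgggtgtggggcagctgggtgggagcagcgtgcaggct
Egfr: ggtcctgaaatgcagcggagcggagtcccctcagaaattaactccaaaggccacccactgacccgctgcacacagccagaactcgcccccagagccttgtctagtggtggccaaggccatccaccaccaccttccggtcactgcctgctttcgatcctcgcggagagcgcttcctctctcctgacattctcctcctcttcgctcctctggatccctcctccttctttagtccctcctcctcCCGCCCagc
The motifs searched, on both strands, were the AP-1 site TGACTCA, the cyclic AMP response element TGACGTCA, the core TGACGTG of the unfolded protein response element, the TATA box TATAAA and the GC box GGGCGG, and none of the matches overlapped another. Among 32851 promoters of the same length these letters occurred in 4.46%, 1.55%, 1.65%, 12.4% and 32.7%. In Areg the cyclic AMP response element began 61 bases before the start, the GC box 52 and the TATA box 31. In Btc none of these letters was found, and in Egfr a GC box on the opposite strand began 9 bases before the start. Of the 9 members 5 had their promoter searched, and of those not shown, Tgfa held 2 GC boxes and Erbb2 held none of the motifs. Hbegf was left out of this search.

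Ereg encodes epiregulin, a ligand of EGFR and ERBB4 (chromosome 5, 91051871 to 91093646, plus strand, GRCm38). Under the Ago2+/+ label its level was 20.2 FPKM with DMSO, 0.0409 with tunicamycin and 3.89 with thapsigargin. Under the Ago2-/- label these treatments gave 0.127, 3.07 and 22.4 FPKM. The groups thus fell on 3 levels: high in Ago2+/+ DMSO and Ago2-/- thapsigargin, intermediate in Ago2+/+ thapsigargin and Ago2-/- tunicamycin, and near 0 in the remaining pair. On the log2 scale both stressors lay below DMSO in the groups labelled Ago2+/+, by -7.17 for tunicamycin and -2.35 for thapsigargin. In those labelled Ago2-/- both lay above it, by 3.80 and 6.63. The low value of Ago2-/- DMSO enters both of the latter differences, so they are not separate observations.

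The deposited Ereg locus began 22.8 kb before the gene in GENCODE and shared its coordinates with the locus of Gm19610, an antisense RNA. Gm19610 was at 1.35, 0 and 1.03 FPKM in Ago2+/+ under DMSO, tunicamycin and thapsigargin, and at 0.0563, 0.390 and 1.86 in Ago2-/-. It was highest and lowest in the same pairs of groups as Ereg. In GENCODE the 2 genes overlap only from 91074622, the start of Ereg, to 91074773, where the span of Gm19610 ends. The sources used here do not say whether counting used strand, so fragments of that overlap cannot be told apart. How far the authors' assembled transcripts overlap is not given either.

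Areg encodes amphiregulin, an EGFR ligand that binds heparin (chromosome 5, 91139599 to 91148432, plus strand). Cells labelled Ago2+/+ had 3.71 FPKM with DMSO, 34.8 with tunicamycin and 0.263 with thapsigargin. Cells labelled Ago2-/- had 65.8, 0.364 and 7.05 FPKM with the same treatments. Its high groups were the low groups of Ereg, and its low groups were those where Ereg was intermediate, so the genes were not mirror images. The difference of tunicamycin from DMSO on the log2 scale was 3.20 under the Ago2+/+ label and -7.15 under the Ago2-/- label. Thapsigargin lay below DMSO under both, by -3.39 and -3.21.

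Btc encodes betacellulin, which binds EGFR and ERBB4 (chromosome 5, 91357261 to 91402994, minus strand). It reached 1 FPKM in 2 groups only, at 2.69 in Ago2+/+ tunicamycin and 4.41 in Ago2-/- DMSO. The remaining 4 groups lay from 0.0618 to 0.108 FPKM. These 2 groups were also the highest for Areg. Since Btc met the level for a call through these groups alone, its differences are those of presence against near absence: 4.11 for tunicamycin over DMSO in Ago2+/+, and -4.74 and -4.44 for tunicamycin and thapsigargin over DMSO in Ago2-/-, on the log2 scale.

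Tgfa encodes transforming growth factor alpha, another ligand of EGFR (chromosome 6, 86195223 to 86275719, plus strand). Its level was 4.17 FPKM in Ago2+/+ DMSO, 2.90 in Ago2+/+ tunicamycin, 3.00 in Ago2-/- DMSO and 2.77 in Ago2-/- thapsigargin. In Ago2+/+ thapsigargin it was 0.0933 and in Ago2-/- tunicamycin 0.154. Tgfa was therefore low in 1 pair of groups, the pair in which Areg was lowest too. On the log2 scale that was -4.46 for thapsigargin over DMSO in Ago2+/+ and -3.61 for tunicamycin over DMSO in Ago2-/-.

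Hbegf encodes heparin-binding EGF-like growth factor, whose precursor is shed after many kinds of stress (chromosome 18, minus strand). It was at 25.8, 21.2 and 20.1 FPKM in Ago2+/+ under DMSO, tunicamycin and thapsigargin, and at 29.0, 17.4 and 26.6 in Ago2-/-. No comparison of 2 treatments or genotypes passed 2-fold, and the range over the 6 groups was 0.73 on the log2 scale. Of the 13032 loci with at least 1 FPKM in any group, 59.1% had as large a range. Of the members that bind EGFR, only Hbegf stayed above 10 FPKM in all groups.

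Nrg1 encodes neuregulin 1, which binds ERBB3 and ERBB4 rather than EGFR (chromosome 8, 31814551 to 32884029, minus strand). It was at 3.26 FPKM in Ago2+/+ DMSO against 12.8 with tunicamycin and 11.0 with thapsigargin. The Ago2-/- groups had 11.8, 11.4 and 8.49 FPKM, in the order DMSO, tunicamycin, thapsigargin. A single group, Ago2+/+ DMSO, lay apart from the other 5. It was also the member that parted the otherwise similar groups Ago2-/- thapsigargin and Ago2+/+ DMSO, by 1.35 on the log2 scale. Over the 3 such pairs 20 member differences met the level for a call and this was the only 1 past 2-fold. Over all loci the shares were 1.83%, 2.19% and 4.11%, the last in the pair that Nrg1 parted.

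**Figure D1:**
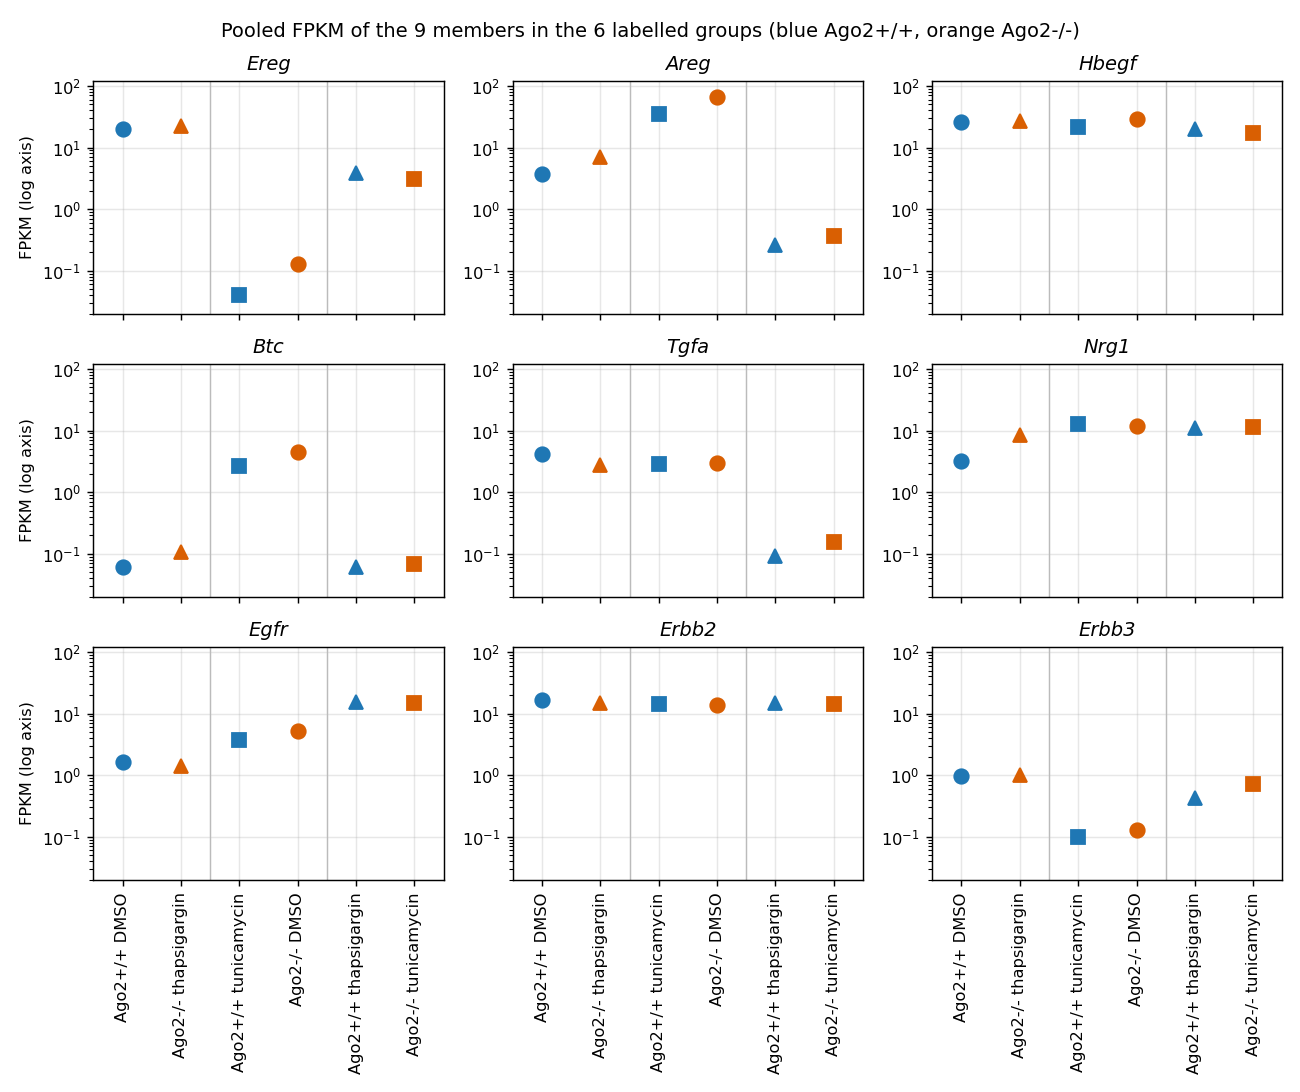
Pooled FPKM (log axis) of the 9 members in the 6 labelled groups, 1 point per group with no error, blue for Ago2+/+ and orange for Ago2-/-, circles for DMSO, squares for tunicamycin and triangles for thapsigargin; similar groups stand side by side between the grey lines. Ereg runs from 0.0409 to 22.4 FPKM and Areg from 0.263 to 65.8, with their low points in different pairs of groups, while Erbb2 stays between 13.7 and 16.4.

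Egfr encodes the EGF receptor (chromosome 11, 16752203 to 16918158, plus strand). Its level with DMSO, tunicamycin and thapsigargin was 1.63, 3.73 and 15.5 FPKM for the Ago2+/+ label and 5.18, 14.6 and 1.41 FPKM for the Ago2-/- label. The highest pair of groups was the one in which Areg and Tgfa were lowest and in which the smooth muscle genes Acta2, Tagln and Cnn1 stood out, with Acta2 at 1644 and 1252 FPKM against at most 3.77 elsewhere. Col1a1, Col1a2 and Pdgfrb were highest there too, while Des was not and Myh11 was near 0 in all groups. Vim and the S100a4 locus were lowest there. The part of these markers in the Egfr difference was not tested. The difference of thapsigargin from DMSO on the log2 scale was 3.18 in Ago2+/+ and -1.81 in Ago2-/-. Tunicamycin lay above DMSO under both labels, by 1.14 and 1.48.

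Erbb2 encodes the receptor without a ligand of its own (chromosome 11, 98412470 to 98439046, plus strand). It was at 16.4, 14.5 and 14.8 FPKM in Ago2+/+ under DMSO, tunicamycin and thapsigargin and at 13.7, 14.1 and 15.1 in Ago2-/-. This was the flattest member, with a range of 0.26 on the log2 scale, and 96.4% of loci had a range as large. Its locus overlaps that of Mien1, at 15.5 to 34.8 FPKM. Erbb3, the kinase-poor receptor of neuregulins (chromosome 10, 128567523 to 128589652, minus strand), was the lowest receptor among the members. Its levels were 0.974, 0.0982 and 0.423 FPKM in Ago2+/+ and 0.128, 0.716 and 1.01 in Ago2-/-, in the same order of treatments. It reached 1 FPKM in a single group, Ago2-/- thapsigargin, and its lowest pair of groups was that of Ereg.

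Of the family genes outside the 9 members, Egf itself was at 0.610 to 0.935 FPKM and Epgn, the ligand gene epigen, at 0.0926 to 0.373. Erbb4, the other receptor of neuregulins, was at most 0.00657 FPKM and listed at 0 in 4 groups. Nrg2 was at 4.71, 0.885 and 0.380 FPKM in Ago2+/+ under DMSO, tunicamycin and thapsigargin, and at 1.16, 0.450 and 3.46 in Ago2-/-. Nrg3 and Nrg4 did not exceed 0.00195 and 0.185 FPKM. Only Nrg2 of these 6 reached 1 FPKM in any group.

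The make-up of the ligand pool was compared next, as each gene's part of the summed FPKM of the 7 genes whose products bind EGFR. The sum was 54.9 FPKM in Ago2+/+ DMSO and 60.0 in Ago2-/- thapsigargin, 62.9 in Ago2+/+ tunicamycin and 103 in Ago2-/- DMSO, and 25.1 in Ago2+/+ thapsigargin and 22.1 in Ago2-/- tunicamycin. In the first of these pairs Hbegf gave 47.0% and 44.4% and Ereg 36.9% and 37.4%. In the next pair Areg led with 55.3% and 63.6%, and Ereg gave 0.0650% and 0.123%. In the last pair Hbegf gave 80.0% and 79.0% and Areg 1.05% and 1.65%. The leading ligand transcript was thus Hbegf in 4 groups and Areg in the other 2.

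Among the receptor genes, whose summed level was 17.5 to 30.8 FPKM, Erbb2 gave 86.3% in Ago2+/+ DMSO and 86.2% in Ago2-/- thapsigargin, where Egfr gave 8.58% and 8.05%. Egfr gave 20.3% in Ago2+/+ tunicamycin and 27.2% in Ago2-/- DMSO. In Ago2+/+ thapsigargin and Ago2-/- tunicamycin, the groups with the smallest ligand sums, Egfr gave 50.5% and 49.7%.

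**Figure D2:**
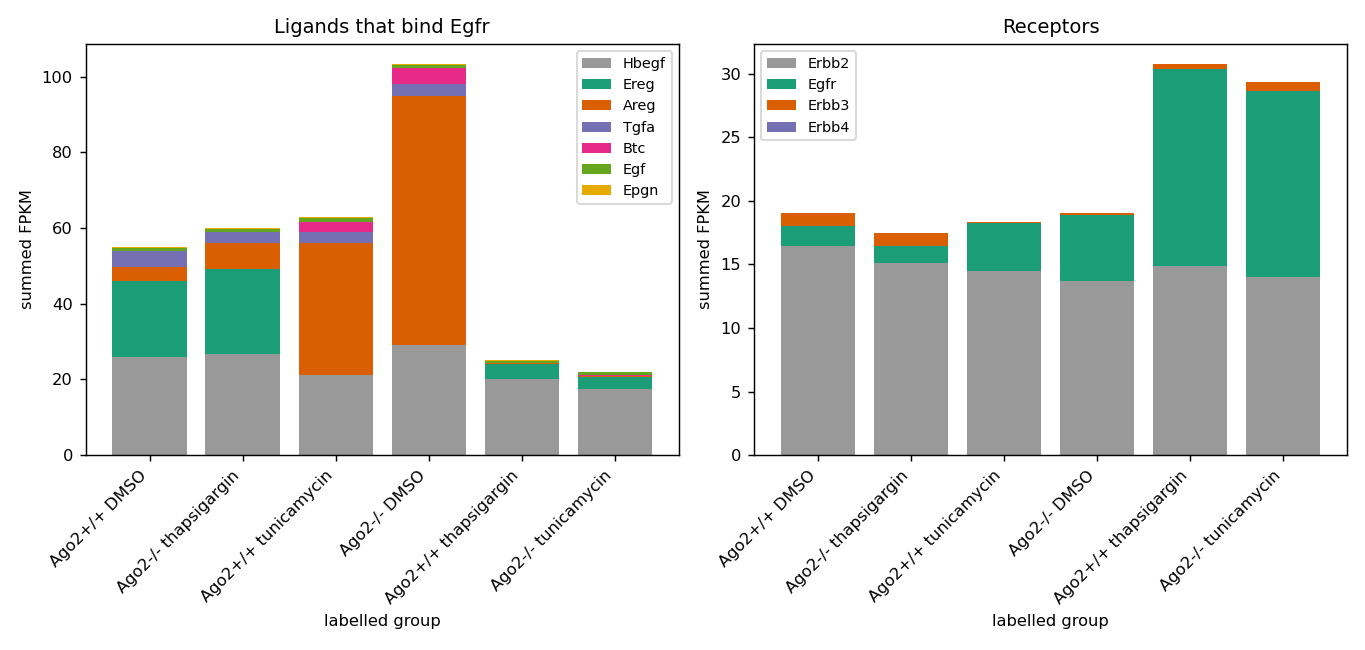
Stacked bars of summed FPKM (linear axis from 0) of the 7 genes of EGFR ligands (left) and the 4 receptor genes (right), 1 bar per labelled group with no error. The ligand bar is tallest in Ago2-/- DMSO at 103 FPKM, where Areg fills 63.6%, and the receptor bars of Ago2+/+ thapsigargin and Ago2-/- tunicamycin are about 50% Egfr.

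The study's design sets each stressor against DMSO within a genotype. In Ago2+/+ under tunicamycin 8 of the 9 members met the level for a call, and 4 were past 2-fold higher (Areg, Btc, Nrg1 and Egfr) and 1 lower (Ereg). Over all 12257 loci at that level the shares were 10.7% higher and 9.31% lower. Under thapsigargin 7 members met it, with Nrg1 and Egfr higher and Ereg, Areg and Tgfa lower, against 10.3% and 8.71% of loci. Erbb3 met it in neither comparison, and Nrg1 lay 1.94 and 1.73 above DMSO on the log2 scale. The same DMSO group stands in both comparisons.

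In Ago2-/- under tunicamycin Ereg and Egfr were higher and Areg, Btc and Tgfa lower among the 8 members at the level, with 13.2% of loci higher and 11.7% lower. Under thapsigargin all 9 met it, Ereg and Erbb3 were higher and Areg, Btc and Egfr lower, with 9.43% and 10.9% of loci. Erbb3 differed by 2.29 on the log2 scale but reached the level only in the thapsigargin group, at 1.01 FPKM, just inside the limit. Under tunicamycin it stayed just outside, at 0.716 FPKM. These comparisons share their DMSO group as well.

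The genotypes were then compared within each treatment. Under DMSO, Ago2-/- was past 2-fold higher for Areg (4.11 on the log2 scale), Btc (4.80), Nrg1 (1.83) and Egfr (1.61) and lower for Ereg (-6.49), where 10.6% of loci were higher and 9.42% lower. Under tunicamycin it was higher for Ereg (4.49) and Egfr (1.94) and lower for Areg (-6.23), Btc (-4.05) and Tgfa (-3.57), with 13.1% and 11.2% of loci. Under thapsigargin it was higher for Ereg (2.50), Areg (4.30), Tgfa (3.89) and Erbb3 (1.09) and lower for Egfr (-3.38), with 8.64% and 10.9% of loci. Erbb3 only just met the level and the 2-fold limit there, at 1.01 FPKM in Ago2-/- against 0.423 in Ago2+/+. No member kept 1 direction past 2-fold in all 3 genotype comparisons. The groups of these comparisons are those of the stressor comparisons, so the values restate the same 6 levels. Because the members were listed with these levels known, nothing is read from how the counts compare with all loci. The median difference of all loci lay within 0.031 of 0 in each comparison.

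**Figure D3:**
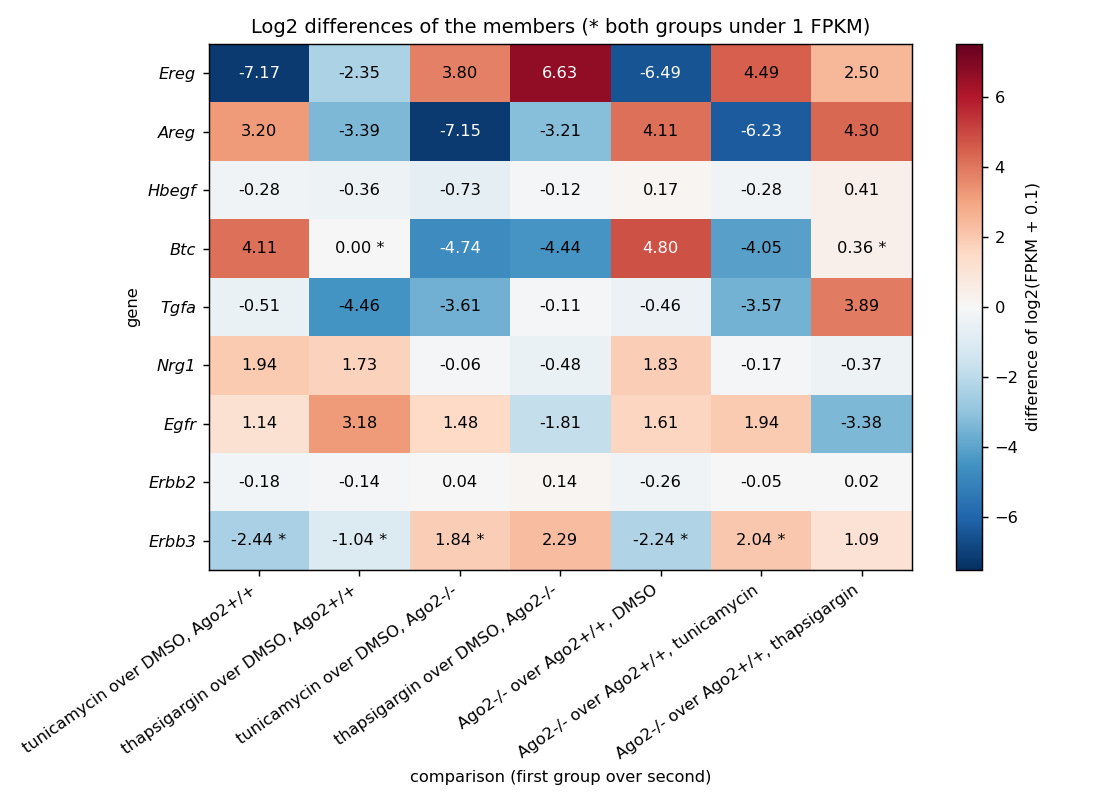
Difference of log2(FPKM + 0.1) of the 9 members (rows) in the 7 comparisons (columns, first group minus second), red for higher and blue for lower, with the value in each cell and an asterisk where both groups are under 1 FPKM. Ereg turns from -7.17 and -2.35 in the Ago2+/+ columns to 3.80 and 6.63 in the Ago2-/- columns, and the rows of Hbegf and Erbb2 stay between -0.73 and 0.41.

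Over the 6 groups the members' ranges on the log2 scale were 7.51 for Areg, 7.32 for Ereg, 4.80 for Btc, 4.46 for Tgfa, 3.38 for Egfr, 2.49 for Erbb3, 1.94 for Nrg1, 0.73 for Hbegf and 0.26 for Erbb2. The median was 3.38 and 6 of 9 were at least 2. Over the loci with at least 1 FPKM in any group, the median was 0.86 and 20.9% were at least 2. A range as large as that of Areg was found in 0.990% of loci and as large as that of Ereg in 1.09%. As the members were listed with these same levels known, nothing is read from how their ranges compare with all loci.

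Ereg, Areg, Btc and Epgn lie together on chromosome 5, in a known cluster of family genes. The span of the 4 genes was 375.5 kb, with 46.0 kb from the end of Ereg to the start of Areg and 208.8 kb from the end of Areg to the nearer end of Btc. Within 500 kb on either side there were 34 loci, of which 10 reached 1 FPKM in any group. Neighbours did not share 1 pattern. Areg and Btc were highest in the same pair of groups, and so were Parm1, at 4.24 FPKM in Ago2+/+ tunicamycin and 3.71 in Ago2-/- DMSO against at most 0.153 elsewhere, and the chemokine gene Cxcl1, at 15.5 and 20.2 against 3.33 to 8.05. Ereg, between Cxcl1 and Areg, was near 0 in that pair. Mthfd2l, a mitochondrial folate enzyme gene upstream of Ereg, stayed between 11.8 and 18.8 FPKM. Rassf6 was above 1 FPKM only in Ago2+/+ thapsigargin (1.69) and Ago2-/- tunicamycin (1.22).

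**Figure D4:**
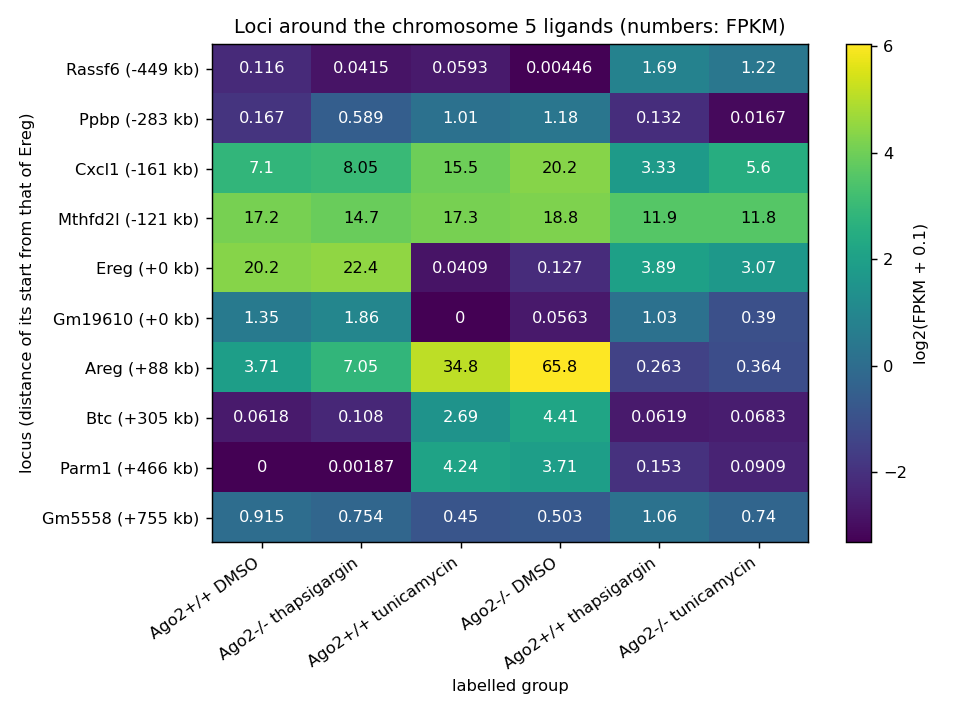
FPKM (numbers in cells) of the 10 loci around the chromosome 5 ligand genes that reached 1 FPKM in any group, in order of the distance of their start from that of Ereg (rows, kb), in the 6 labelled groups (columns), with colour for log2(FPKM + 0.1). Ereg is darkest where Areg, Btc and Parm1 are brightest.

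The proteins that cut the ligands free were described from a list of 10 genes of ADAM proteases, iRhoms, which escort ADAM17 to the cell surface, and a rhomboid protease. Adam17 and Adam10, the main sheddases, were at 16.0 to 24.1 and 30.4 to 39.3 FPKM, and neither passed 2-fold in any comparison. The largest ranges on the log2 scale were those of Adam19 (5.31), Adam8 (4.38) and Adam12 (3.65). Adam19 was at 0.160 FPKM in Ago2+/+ tunicamycin and 0.301 in Ago2-/- DMSO and at 8.58 to 10.2 in the other 4 groups. Adam8 was at 14.7 in Ago2+/+ DMSO and 13.1 in Ago2-/- thapsigargin against 0.614 to 1.19, and Adam12 was lowest in Ago2+/+ DMSO at 0.224 FPKM, as Nrg1 was. The median range of the 9 genes of the list with 1 FPKM in any group was 1.00 on the log2 scale and 3 were at least 2, against 0.86 and 20.9% over all loci at that level. Over the 7 comparisons, 1 or 2 of these 9 genes were past 2-fold higher and 0 to 3 lower, where 8.64% to 13.2% of all loci were higher and 8.71% to 11.7% lower.

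The relay from the receptor to MAP kinase was described by 14 genes, all above the level for a call, with a median range of 0.78 on the log2 scale and 0 with a range of at least 2, against 0.86 and 20.9% over all loci. In each comparison 0 to 2 of these genes were past 2-fold higher and 0 or 1 lower, beside 8.64% to 13.2% and 8.71% to 11.7% of all loci. The widest range, 1.58, was that of Gab1, a docking protein gene, at 2.34 FPKM in Ago2-/- DMSO and 3.08 in Ago2+/+ tunicamycin against 5.28 to 7.21 in the other 4 groups. The Ras genes Hras and Nras stood at 32.9 to 62.7 and 55.1 to 80.7 FPKM. Among the 14 genes, Araf, a Raf kinase gene, and Ptpn11, a phosphatase gene, had the smallest ranges, 0.32 and 0.33.

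Of 17 genes that damp the pathway, 6 were past 2-fold higher and 0 lower in Ago2+/+ under tunicamycin, with a list median of 0.43 on the log2 scale, and 1 higher and 4 lower under thapsigargin, with a median of -0.30. In Ago2-/- the counts were 1 higher and 9 lower under tunicamycin (median -1.11) and 2 higher and 6 lower under thapsigargin (median -0.52). Between genotypes, Ago2-/- was higher for 6 and lower for 1 under DMSO (median 0.56), higher for 1 and lower for 8 under tunicamycin (median -0.89), and higher for 6 and lower for 1 under thapsigargin (median 0.37). The shares over all loci and their medians near 0 are those given above. The widest range, 4.80, was that of Dusp4, a phosphatase of MAP kinases, at 5.04 FPKM with DMSO, 37.0 with tunicamycin and 2.06 with thapsigargin for the Ago2+/+ label and 40.2, 1.35 and 4.32 for the Ago2-/- label. Errfi1, which binds and blocks EGFR, was at 83.7 and 123 FPKM in the same 2 high groups and at 14.0 to 28.4 in the others. Both were high where Areg was high. Spry1, an inhibitor of the relay, followed another course with 0.278 and 0.467 FPKM in Ago2+/+ DMSO and Ago2-/- thapsigargin against 2.21 to 4.32. Socs4 (8.66 to 10.9 FPKM) and Lrig2 (5.24 to 7.88) varied least.

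A list of 15 transcripts known to rise after receptor activation was counted in the same way. Between 12 and 15 of them met the level for a call in a comparison, and counts and medians are over those: all 15 in both Ago2-/- stressor comparisons and between genotypes under DMSO, 14 in both comparisons of Ago2+/+ tunicamycin, and 12 and 13 in Ago2+/+ thapsigargin against DMSO and against Ago2-/-. Of these, 4 were past 2-fold higher and 1 lower in Ago2+/+ under tunicamycin (median 0.70 on the log2 scale) and 3 higher and 2 lower under thapsigargin (median 0.15). In Ago2-/- 0 were higher and 8 lower under tunicamycin (median -1.15) and 1 higher and 6 lower under thapsigargin (median -0.71). Ago2-/- was past 2-fold higher for 8 and lower for 0 under DMSO (median 1.11), higher for 0 and lower for 5 under tunicamycin (median -0.66), and higher for 3 and lower for 2 under thapsigargin (median 0.27). Over all loci 8.64% to 13.2% were higher and 8.71% to 11.7% lower, with medians near 0. The AP-1 subunit gene Fosl1 was at 165 FPKM in Ago2+/+ tunicamycin and 189.9 in Ago2-/- DMSO, against 24.3 to 116 elsewhere. The early growth response gene Egr3 was at 3.14 and 5.26 FPKM in those groups and at 0.410 to 1.02 in the others. Fos was at 4.99 and 8.59 against 0.975 to 3.72, and these 3 genes had the largest ranges of the list. Etv4, next with 2.91, was highest in another pair, at 70.5 FPKM in Ago2-/- thapsigargin and 69.2 in Ago2+/+ DMSO. Jun (38.1 and 29.3) and Etv5 (22.9 and 17.1) were highest in that pair too. Jun was lowest where Fosl1, Egr3 and Fos were highest. Ier2 and Myc varied least, at 33.3 to 52.0 and 73.9 to 147 FPKM. All lists were written with earlier results of these data known, and the calls of the 7 comparisons share groups.

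**Figure D5:**
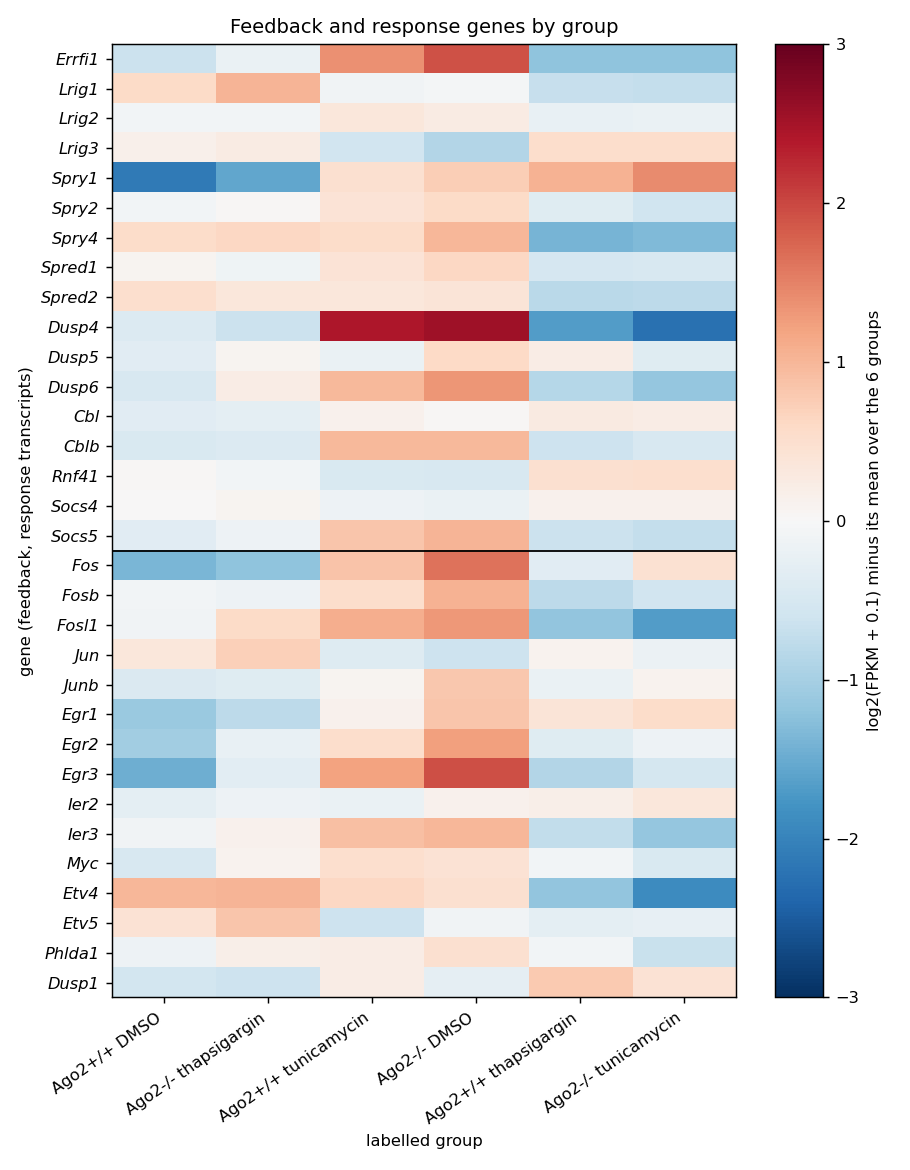
Level of 17 feedback genes and 15 response transcripts (rows, split by a black line) in the 6 labelled groups (columns), as log2(FPKM + 0.1) minus the gene's mean over the groups, red above and blue below. Dusp4, Errfi1, Egr3 and Fosl1 are red in Ago2+/+ tunicamycin and Ago2-/- DMSO, the groups with most Areg, where Jun is lowest. Spry1 is blue in Ago2+/+ DMSO and Ago2-/- thapsigargin, the groups with most Ereg, where Etv4 is highest.

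The loci whose pattern came closest to that of Ereg were found by the root mean square difference of log2(FPKM + 0.1), centred on the mean over the 6 groups, over 12659 loci. They were Klf8 (0.44), a transcription factor gene, Eps8l2 (0.46), whose protein belongs to a family of EGFR substrates, and Rragb (0.48), a GTPase of nutrient sensing. Tmem37, Inhbb, Ccbe1, Erdr1, Ak4, U90926 and B3galt1 followed at 0.53 to 0.77. Klf8 was at 7.02 FPKM in Ago2+/+ DMSO and 7.95 in Ago2-/- thapsigargin, at 2.98 in Ago2+/+ thapsigargin and 1.496 in Ago2-/- tunicamycin, listed at 0 in Ago2+/+ tunicamycin and at 0.00567 in Ago2-/- DMSO. These genes were picked for their likeness to Ereg over the same 6 values, so that likeness is no separate observation. With a pseudocount of 1 in place of 0.1, 5 of the 10 genes stayed in the list, and with the Pearson correlation 0 did.

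Other members had close neighbours too. For Areg the nearest were Spp1 (0.42), the osteopontin gene, at 1214 FPKM in Ago2+/+ tunicamycin and 2015 in Ago2-/- DMSO against 16.0 to 461 elsewhere, then Zic5 (0.49) and Slc22a23 (0.55). For Egfr they were Tspyl4 (0.15), Meis1 (0.19) and Irf5 (0.21), and for Erbb3 Zcwpw1 (0.14), Ube2l6 (0.18) and H2-D1 (0.18). For Btc they were Wfdc2 (0.08), Tmem163 (0.13) and Cd53 (0.17), for Tgfa AI467606 (0.22), Gcnt1 (0.26) and Gm14137 (0.31), and for Nrg1 Pfn2 (0.10), Syn1 (0.12) and Fsd1 (0.13). The flat members Hbegf and Erbb2 came closest to Hmgb1-ps7, Fam53b and mt-Nd6 (0.08 to 0.09) and to Rap1gds1, Polr2j and Paf1 (0.03), as many evenly expressed genes would.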

How the data were processed

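RNA of mouse embryonic fibroblasts was sequenced in 18 libraries. The submitters' processing notes and the study's methods name FastQC 0.11.7, HISAT2 2.1.0, StringTie 1.3.4d and Cuffdiff 2.2.1, build GRCm38 and Ensembl release 91. The sources used here do not give library scaling or strandedness. The deposited FPKM was estimated by the authors as 1 value per group over its libraries, in a table of 772485 rows, 1 for each of 51499 loci and each of 15 pairs of groups. The columns of the authors' own comparisons hold a log2 ratio, a test statistic, p- and q-values and a call, and were not used.

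Loci were matched by gene symbol. FPKM was read per group, log2 differences used a pseudocount of 0.1, and a call needed 2-fold and at least 1 FPKM in 1 of both groups (Python 3.11.15, pandas 2.3.3, numpy 2.4.6), a procedure tested on simulated data. Without values per library no test could be made, and the depth is unknown. Starts in the table count from 0 and are given here from 1. Gene spans came from GENCODE M21. Where a symbol had more than 1 locus, that with the higher mean was used. The named genes were the members, the other family genes, pathway lists, cell type markers, Ago2, the loci within 500 kb of the chromosome 5 ligand genes, and the loci with the closest pattern, 10 for Ereg and 3 for each other member. Some genes of the relay list are not reported here. Ddx3y and Xist were added as label checks after their values were seen. The members and lists were chosen with earlier results of these data known. Alternatives were pseudocounts of 1 and 0.01, other level filters, centring on the median and loci with 1 symbol.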

Additional observations from a re-analysis of the deposited data

Results flagged for a closer look

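Several members differed from DMSO in opposite directions under the same stressor in the groups labelled Ago2+/+ and Ago2-/-. The log2 change in Ago2-/- minus that in Ago2+/+ was 10.98 for Ereg, -10.35 for Areg and -8.85 for Btc under tunicamycin. Under thapsigargin it was 8.98 for Ereg and -4.98 for Egfr. These differences were not tested, because the table gives 1 pooled value per group. Each of them joins all 4 groups of the contrast, and the level of Ago2 in those groups did not follow the genotype labels.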

How the results depend on the processing

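The number of members past 2-fold, 5 in each of the 7 comparisons, was recomputed under 6 alternatives. Of the 42 counts obtained, 35 were within 1.5 times of it. The other 7 were all those that required at least 1 FPKM in both groups, which leaves out the members near 0 in a group: 3 in Ago2+/+ under tunicamycin and 3 under thapsigargin, 1 in Ago2-/- under tunicamycin and 2 under thapsigargin, and between genotypes 3 with DMSO, 1 with tunicamycin and 2 with thapsigargin. The share of all loci past 2-fold under that filter was not computed, so these counts are not set against all loci. The median range of the members was 2.24 with a pseudocount of 1 and 3.46 with 0.01, against 3.38. That of Ereg was 4.49 and 8.78, and that of Erbb3 0.87 and 3.24. No paired analysis was possible because the table gives 1 pooled value per group, and for the same reason no library could be left out, including the 4 whose labels conflict. Levels under 1 FPKM carry no error here, and their ratios depend on the pseudocount.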
